A study of Homo sapiens with 24 samples.

Results

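Expressed ZNF genes are described here across HepG2 cells exposed to a small molecule or a cytokine. The genes were taken by symbol (ZNF followed by a digit), with 1 probe set a gene, and were selected on measured values, namely a mean log2 level of 6.5 or more over the 10 DMSO arrays. Of 491 ZNF genes measured among 14884 genes, 193 passed and 298 lay under the threshold. The last genes inside were ZNF680 and ZNF695, both at 6.52, and the first outside were ZNF544 and ZNF90, both just under 6.5. Means of the 193 genes ran from 6.52 to 10.1 with a median of 7.28, and these levels are a description of what the rule used.

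HepG2 is an established human hepatoma line that keeps many hepatocyte functions. Its cells were treated with 1 uM BRD8518, a small molecule known by its code name, for 1 h (3 arrays), 6 h (2 arrays) or 24 h (3 arrays). Others received 100 ng/mL oncostatin M (OSM), a cytokine of the interleukin-6 family that signals through gp130, for 1 h or 24 h (3 arrays each). DMSO controls were set up for 1 h (3 arrays), 6 h (4 arrays) and 24 h (3 arrays), and all 8 groups contained 0.25% DMSO. RNA was hybridised to 24 whole-transcript arrays. The labels do not say whether arrays of a group came from separate cultures, so a p-value reflects array-to-array spread alone, part or all of which may be technical. In bulk RNA, fewer cells carrying a transcript and less transcript per cell cannot be told apart.

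C2H2 zinc-finger proteins form the biggest class of human transcription factors, and each finger contacts a short stretch of DNA. Many carry a KRAB domain, which binds the co-repressor TRIM28 and through it the histone methyltransferase SETDB1 and HP1 proteins, so that the bound DNA is packed into heterochromatin. KRAB genes arose by repeated local duplication, many of them in clusters on chromosome 19, and a large share of the proteins silence transposable elements. Others without KRAB act as activators, RNA-binding proteins, ubiquitin or SUMO ligases. Of the 193 expressed genes, 75 lie on chromosome 19 in the RefSeq table, 108 have another ZNF gene as a coding neighbour, and 190 are protein-coding, with the pseudogenes ZNF271P and ZNF767P and the antisense RNA ZNF674-AS1 as the rest. Clustered ZNF genes are close in sequence and 102 of the 193 overlap another RefSeq gene, so a probe set may read more than its named gene.

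One control array stood apart. DMSO 6 h replicate 2 was the lowest of its 4 arrays in 108 of the 193 genes and the highest in 55. Its median deviation from the other DMSO 6 h arrays was -0.16 log2, and the median absolute deviation was 0.34 against 0.11 to 0.18 on the other 3. Results are therefore given with this array and, where they move, without it. Over the remaining DMSO arrays 195 ZNF genes passed the threshold, 192 of them among the 193. All 16 measured hepatocyte markers of a list of 20 were at or above 6.5, with a median of 11.4, and the list averaged between 10.4 and 11.0 on every array. Of 11 measured markers of blood, endothelial, stromal and other epithelial cells, CD68, LYZ and EPCAM reached 6.5, and that list averaged 6.03 to 6.31 per array.

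**Figure D1:**
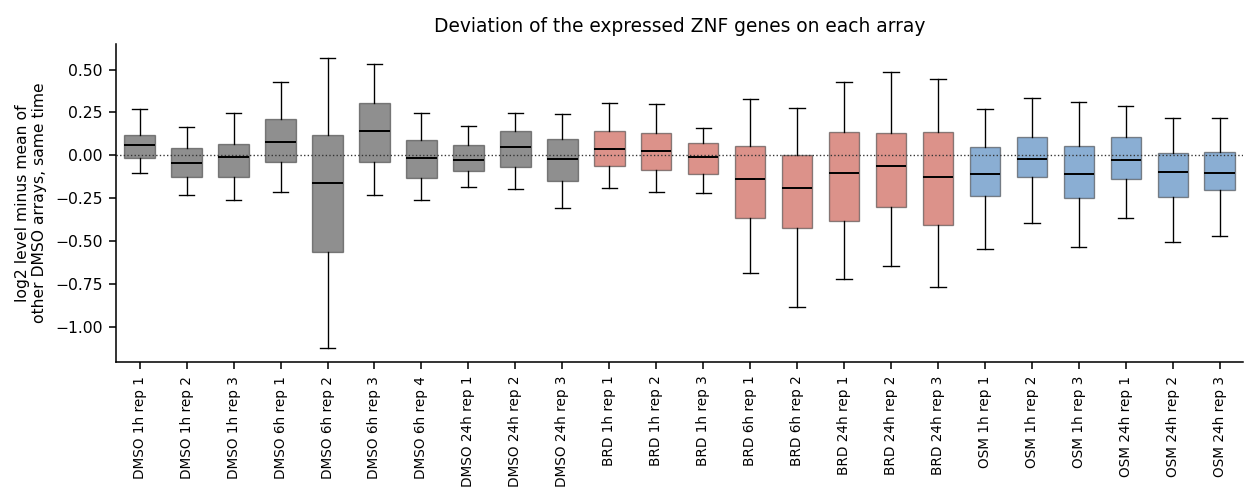
Deviation of the 193 expressed ZNF genes on each of the 24 arrays, as the log2 level minus the mean of the other DMSO arrays of the same time. Boxes show quartiles with the median as a line, and whiskers the 5th and 95th percentiles. Grey is DMSO, red BRD8518 and blue OSM. DMSO 6 h replicate 2 has the widest box of the DMSO arrays, with a median of -0.16, and the BRD8518 6 h arrays have medians of -0.14 and -0.19.

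Promoter windows are shown for 4 genes described below: ZNF101, ZNF878 and ZNF217, which rose at both times of OSM, and ZNF451. The probe set used for ZNF451 had the deepest fall at 6 h of BRD8518. A second probe set of that gene differed by 0.56 in the other direction. Each window runs from 250 bases before to 50 after a RefSeq start on GRCh38.p14, 5′ to 3′ on the strand of the gene. They are chr19:19668589-19668888 on the plus strand for ZNF101, chr19:12052912-12053211 on the minus strand for ZNF878, chr20:53593790-53594089 on the minus strand for ZNF217 and chr6:57089938-57090237 on the plus strand for ZNF451. Capitals mark each match, on either strand, to any of the motifs searched. In the first 3 windows all matches are the SP/KLF motif GGGCGG or its complement, and ZNF451 also holds the ZNF143 motif ACTACAATT.
ZNF101: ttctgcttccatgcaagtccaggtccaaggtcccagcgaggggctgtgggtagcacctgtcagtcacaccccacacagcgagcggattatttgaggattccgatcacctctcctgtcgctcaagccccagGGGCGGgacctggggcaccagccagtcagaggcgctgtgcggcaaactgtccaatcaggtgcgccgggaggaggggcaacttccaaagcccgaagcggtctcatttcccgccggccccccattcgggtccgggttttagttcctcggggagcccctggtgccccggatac
ZNF878: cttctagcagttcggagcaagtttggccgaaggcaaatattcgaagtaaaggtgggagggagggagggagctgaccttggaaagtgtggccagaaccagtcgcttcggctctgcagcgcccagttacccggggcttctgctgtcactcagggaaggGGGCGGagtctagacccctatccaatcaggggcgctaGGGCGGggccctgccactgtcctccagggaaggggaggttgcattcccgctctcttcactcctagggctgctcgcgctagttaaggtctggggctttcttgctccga
ZNF217: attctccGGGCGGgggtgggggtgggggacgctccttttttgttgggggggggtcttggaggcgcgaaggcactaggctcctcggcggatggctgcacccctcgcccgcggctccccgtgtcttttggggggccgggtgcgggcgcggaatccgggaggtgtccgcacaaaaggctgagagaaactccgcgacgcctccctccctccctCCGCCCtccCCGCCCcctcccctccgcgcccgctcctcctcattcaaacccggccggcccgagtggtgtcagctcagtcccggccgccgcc
ZNF451: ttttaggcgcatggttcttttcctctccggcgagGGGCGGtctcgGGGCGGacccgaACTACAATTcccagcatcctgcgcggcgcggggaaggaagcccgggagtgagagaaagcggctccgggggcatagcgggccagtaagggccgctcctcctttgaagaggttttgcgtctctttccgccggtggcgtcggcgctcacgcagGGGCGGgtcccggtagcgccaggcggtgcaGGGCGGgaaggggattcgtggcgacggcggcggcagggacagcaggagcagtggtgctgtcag

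Motifs were searched on both strands in 213 windows of 170 of the 193 genes and in all 35116 RefSeq windows. The ETS motif CCGGAAG was in 33.8% of the ZNF windows and 10.3% of all windows. SP/KLF (GGGCGG) was in 65.3% and 45%, CRE (TGACGTCA) in 6.1% and 1.85%, and the ZNF143 motif (ACTACAATT) in 2.82% and 0.336%. The STAT motif (TTCNNNGAA) was in 7.04% and 7.66%, AP-1 (TGANTCA) in 3.76% and 7.71%, EGR1 (GCGTGGGCG) in 0.939% and 0.795%, and the E-box (CACGTG) in 7.04% and 7.26%. A window can hold several motifs. ZNF windows were richer in CpG pairs, with a median of 23 against 14, and in GC, with 62.3% against 58.7%. The ZNF genes were chosen as expressed, while the windows of all genes were not limited by level. Windows of genes at the threshold were not searched apart, so whether these differences are particular to ZNF genes was not tested. In the 58 windows of 45 genes that were lower at 6 h of BRD8518, ETS was in 32.8%, SP/KLF in 55.2%, CRE in 3.45%, the ZNF143 motif in 1.72%, STAT in 10.3%, AP-1 in 6.9%, the E-box in 12.1% and EGR1 in 0%. These are letter matches, and no binding was measured.

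At 6 h of BRD8518 more of the expressed ZNF genes were lower than higher. Of 193 genes, 50 fell and 7 rose past an adjusted p of 0.05 (limma, Benjamini-Hochberg over all 14884 genes). Among all genes tested, 8.86% were lower and 5.62% higher; among the 6344 genes at the same threshold, 14.1% and 9.44%. The ZNF share lower was 25.9%. Their median change was -0.19 log2, beside -0.01 over all genes and -0.03 over genes at the threshold, and 136 of 193 estimates were below 0. The BRD8518 arrays had median deviations of -0.14 and -0.19 from the DMSO 6 h mean, while the medians over all genes were -0.02 and -0.01. The control DMSO 6 h replicate 2 lay at -0.16 against its fellow controls, between the treated arrays, so treated and control arrays overlapped in this measure; the other 3 controls lay between -0.01 and 0.14. Falls past the test ran from -0.27 to -1.16, and in 41 of the 50 genes both BRD8518 arrays lay below all 4 DMSO arrays. The test had already picked these 50 genes, so the separation is no added evidence, and its share over all genes is not given.

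Without DMSO 6 h replicate 2 the counts were 84 lower and 12 higher, with a median of -0.22. The background then was 14.7% lower and 7.81% higher over all genes, and 24.6% and 12.4% over genes at the threshold, against 43.5% of the ZNF genes lower. Fitting the 6 arrays of this time alone, with replicate 2 in, gave 15 lower and 1 higher. Without BRD8518 6 h replicate 1 there were 33 lower and 2 higher, and without BRD8518 6 h replicate 2, 31 and 3. After centring each array on its median the split was 39 lower and 14 higher and the median change -0.11. DMSO levels chose the genes and are also the baseline here, so the change is not wholly independent of the choice. Choosing instead by the mean over all 24 arrays gave 187 genes with 44 lower and 9 higher. ZNF genes under the threshold moved alike, with 65 of 298 lower, 4 higher and a median of -0.17.

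**Figure D2:**
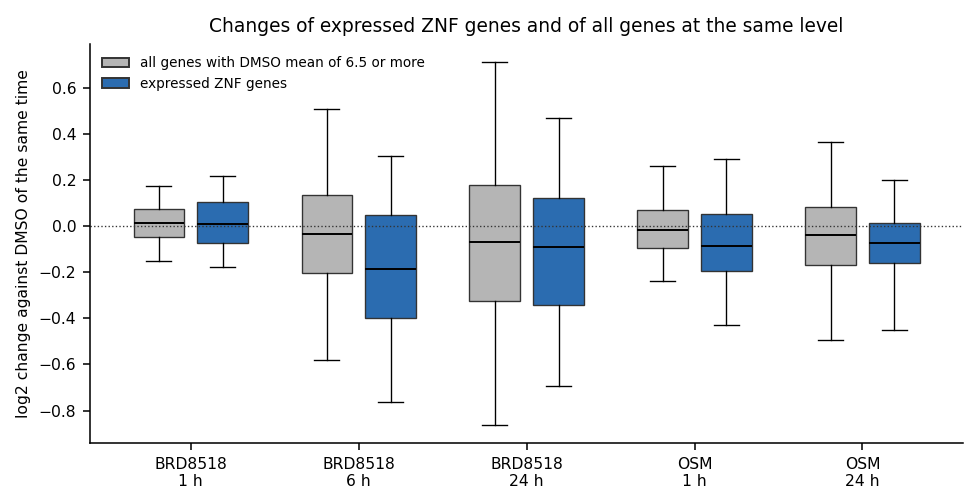
Log2 change against DMSO of the same time for the 193 expressed ZNF genes (blue) and all 6344 genes with a DMSO mean of 6.5 or more (grey), in 5 comparisons. Boxes show quartiles with the median as a line, and whiskers the 5th and 95th percentiles. At 6 h of BRD8518 the ZNF median is -0.19 beside -0.03 in the grey box.

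The deepest estimate at 6 h was that of ZNF451, a SUMO ligase that joins SUMO chains to its targets. Its levels were 8.08 and 8.13 on the BRD8518 arrays and 9.45, 8.61, 9.54 and 9.43 on the DMSO arrays. Both treated arrays lay below all controls, although replicate 2 stood well below the other 3. The change was -1.16 ± 0.17 log2 (SE), a 2.23-fold fall, with an adjusted p of 5.5e-05, and -1.37 without replicate 2. A second probe set of the gene, at a mean level of 6.98, differed by 0.56 in the other direction, and the mean of both gave -0.30, which did not pass. An antisense gene, ZNF451-AS1, overlaps the locus, so the fall is that of 1 probe set and its gene assignment is uncertain. The call was also lost when the 6 arrays were fitted alone.

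ZNF514 read 6.04 and 5.82 after 6 h of BRD8518, and 6.87, 6.63, 6.85 and 6.61 in DMSO. The groups did not overlap, and the change was -0.81 ± 0.09 with an adjusted p of 1.6e-06. ZNF789 read 5.85 and 5.75 against 6.78, 6.65, 6.79 and 6.55, also without overlap. It fell by 0.89 ± 0.11 (adjusted p 3.7e-06); its gene overlaps ZNF394. ZNF607 (-0.91), ZNF43 (-0.81), ZNF334 (-0.80), ZNF691 (-0.79), ZNF551 (-0.78) and ZNF69 (-0.76) completed the list of largest separate falls with ZNF101, which is described with OSM. Of these, ZNF607 and ZNF69 lost the call when the 6 arrays were fitted alone, and ZNF69 also without BRD8518 6 h replicate 1 (-0.63). ZNF253 fell by 0.98 ± 0.27 (adjusted p 0.015) with treated and control arrays overlapping.

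The rises at 6 h were fewer and smaller. ZNF330, which encodes the nucleolar protein NOA36, read 7.88 and 7.87 in BRD8518 and 7.29, 7.11, 7.32 and 7.24 in DMSO. Each treated array lay above each control, with a change of 0.64 ± 0.09 (adjusted p 1.5e-05). ZNF277 rose by 0.69 ± 0.19 (adjusted p 0.014), but by 0.44 without replicate 2, which read 6.65 against 7.56 to 7.70 on the other controls. ZNF746, the KRAB repressor PARIS, rose by 0.36, ZNF792 by 0.36, ZNF513 by 0.35 and ZNF609 by 0.33. Without BRD8518 6 h replicate 1 the calls of ZNF277 (0.64), ZNF746 (0.38), ZNF792 (0.32), ZNF513 (0.42) and ZNF609 (0.26) were lost, and ZNF513 had overlapping arrays. ZNF674-AS1 was 0.41 higher, and this call was lost without replicate 2 (0.30, adjusted p 0.086).

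By 24 h of BRD8518 the expressed ZNF genes moved in both directions. In total, 52 fell and 22 rose. The background was 15.6% lower and 12.1% higher over all genes, and 28.1% and 18.4% over genes at the threshold. With 26.9% lower and 11.4% higher, the ZNF share of falls was near that of other genes at the same level. The median change was -0.09, beside -0.07 for genes at the threshold. All 74 changed genes had 3 BRD8518 arrays on 1 side of all 3 DMSO arrays. The test had already picked these genes, so this too is a description, without a share over all genes. Counts without DMSO 6 h replicate 2, which enters only the shared spread here, were 72 lower and 34 higher, with 20.2% and 15.5% of all genes.

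ZNF114, a KRAB zinc-finger gene on chromosome 19, showed the highest rise at 24 h. It read 10.04, 10.11 and 10.05 in BRD8518 and 8.96, 8.88 and 8.73 in DMSO. The groups were more than 1 log2 unit apart. The change was 1.21 ± 0.12, 2.31-fold, with an adjusted p of 5.3e-08; an antisense gene, ZNF114-AS1, overlaps it. ZNF496, a SCAN and KRAB protein, rose by 0.64, ZNF277 by 0.64, ZNF581 by 0.63, ZNF562 by 0.63, and ZNF703, a transcriptional co-repressor amplified in breast cancer, by 0.59. ZNF330 (0.54), ZNF529 (0.54), ZNF827 (0.54) and ZNF513 (0.50) followed.

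ZNF326, a subunit of the DBIRD complex that couples transcription with splicing, read 8.12, 8.10 and 8.07 after 24 h of BRD8518. The DMSO arrays gave 9.14, 9.18 and 8.91, all above. It fell by 0.98 ± 0.12, 1.97-fold, with an adjusted p of 9.9e-07. Falls of 0.71 to 0.83 were seen for ZNF43, ZNF584, ZNF551, ZNF480, ZNF620, ZNF614, ZNF691 and ZNF331. None of these 24 h calls was lost under any alternative that was run.

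The 6 h and 24 h changes rest on separate arrays, but the tests at both times use a spread shared over all 24 arrays. The calls at these times are therefore not independent. Of the 50 genes lower at 6 h, 27 were also lower at 24 h, which is 54% of the first list and 51.9% of the second. Over all genes at the threshold these shares were 65.4% and 32.7%, and the difference from the ZNF shares was not tested. In the fit without DMSO 6 h replicate 2, 50 genes were lower at both times, 59.5% of 84 and 69.4% of 72, beside 67.9% and 45.8% of genes at the threshold. Of the 7 higher at 6 h, 6 were also higher at 24 h: ZNF277, ZNF330, ZNF513, ZNF609, ZNF746 and ZNF792. They numbered 11 of 12 without DMSO 6 h replicate 2. No gene was called lower at one time and higher at the other. In a direct test of the 24 h change minus the 6 h change, 16 genes were above 0 and 6 below, where 5.96% and 5.12% of all genes were. Without DMSO 6 h replicate 2 these were 35 and 10; without BRD8518 6 h replicate 1 they were 11 and 3, without BRD8518 6 h replicate 2, 8 and 4, with the 4 groups alone 8 and 3, and centring each array gave 10 and 7.

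In 10 of the 50 genes the 24 h change was above the 6 h change past the test: ZNF250, ZNF264, ZNF334, ZNF341, ZNF436, ZNF451, ZNF514, ZNF623, ZNF71 and ZNF789. This was 20% of the 50, beside 16.1% of genes at the threshold that were lower at 6 h, and 24 of 84 without DMSO 6 h replicate 2 (28.6% beside 23.3%). The 6 h arrays both chose these genes and enter the difference, so the counts are a description. ZNF514 read 7.03, 6.95 and 6.89 at 24 h of BRD8518 and 6.75, 6.88 and 6.86 in DMSO, so all treated arrays lay just above the controls. The 24 h change was 0.12 ± 0.09 and did not pass, and the difference from 6 h was 0.93 ± 0.13 (adjusted p 3.3e-05). For ZNF451 the difference was 1.08 ± 0.24 (adjusted p 0.0041) on the probe set used, and 0.24 on the mean of both. ZNF264 differed by 0.71 ± 0.15 (adjusted p 0.0028). In the opposite direction, ZNF326 fell further by 0.79 ± 0.17 (adjusted p 0.0036) and ZNF695 by 0.78 ± 0.18 (adjusted p 0.0048). ZNF695 read 6.56 and 6.62 at 6 h and 5.83, 5.97 and 5.84 at 24 h of BRD8518.

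**Figure D3:**
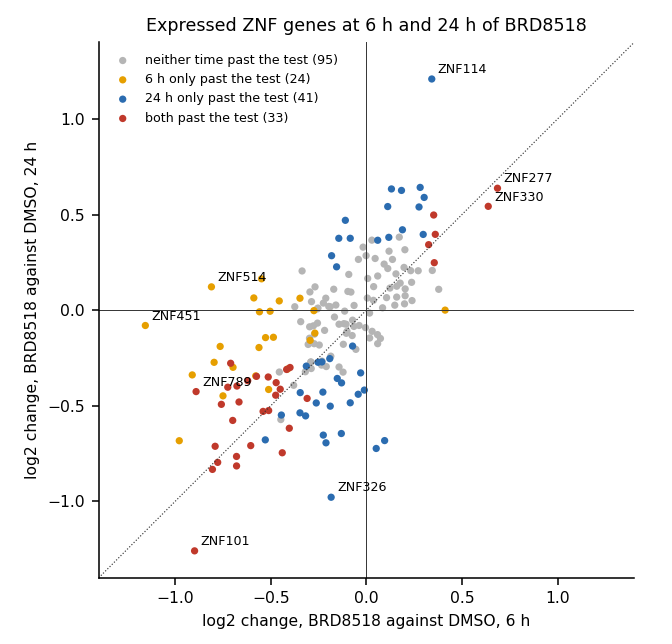
Log2 change at 6 h (x axis) against 24 h (y axis) of BRD8518 for the 193 expressed ZNF genes, each against DMSO of its time. Colours mark genes past the test at neither time (95), 6 h only (24), 24 h only (41) or both (33), and the dotted line is equal change. ZNF451 and ZNF514 lie at the left near 0 on the y axis, and ZNF101 is low at both times.

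After 1 h of BRD8518 few ZNF genes differed. ZNF503, a co-repressor of the same family as ZNF703, was the only one of 193 past the test, at 7.53, 7.48 and 7.38 against 7.18, 7.21 and 7.0 in DMSO. It rose by 0.33 ± 0.07 (adjusted p 0.042), and the call was lost under 9 of 16 alternatives. No gene fell, and 12 had an unadjusted p under 0.05. ZNF266, named after its values were seen, had the estimate furthest from 0, with 7.29, 7.38 and 7.09 against 7.74, 7.58 and 7.76 in DMSO. Its change of -0.44 ± 0.10 did not pass (adjusted p 0.089) but did without DMSO 6 h replicate 2 (adjusted p 0.045), where 1 gene was higher and 1 lower. For all genes, the background was 0.222% higher and 0.0336% lower. The change from 1 h to 6 h of BRD8518 was tested directly: 26 genes were lower and 1, ZNF330, higher, against 3.91% and 2.1% of all genes. Without replicate 2 these were 63 and 3, with the position letter of the labels as a fixed term 13 and 1, without BRD8518 6 h replicate 2 12 and 1, and with the 4 groups alone 7 and 1. DMSO arrays compared between times gave no ZNF gene past the test, with 17 genes for 6 h against 1 h, 6 for 24 h against 6 h and 3 for 24 h against 1 h at an unadjusted p under 0.05. Of all genes, 0.00672% passed in the first and 0% in the other two.

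OSM changed fewer ZNF genes than BRD8518 at 24 h but more at 1 h, and sharp rises were among them. At 1 h, 6 rose and 10 fell, with 2.03% of all genes higher and 0.813% lower, and 3.01% and 1.02% of genes at the threshold. The rising genes made up 3.11% of the 193 and the falling ones 5.18%. The median change was -0.09, beside 0.01 over all genes, and 125 of 193 estimates were below 0. At 24 h, 5 rose and 14 fell, with a background of 4.6% and 5.65% over all genes and 6.48% and 11% at the threshold. The ZNF shares there, 2.59% and 7.25%, were below those of genes at the same level. Without DMSO 6 h replicate 2 the counts were 9 higher and 20 lower at 1 h (all genes 3.19% and 2.22%) and 9 and 26 at 24 h (7.26% and 9.78%). At 1 h, the total of 16 became 8 without OSM replicate 1, 9 without DMSO replicate 2 and 10 without DMSO replicate 3; at 24 h, the total of 19 became 12 without OSM replicate 2.

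ZNF101, ZNF878 and ZNF217 rose at both times of OSM. ZNF101, a KRAB zinc-finger gene on chromosome 19, was past the test in 4 of the 5 comparisons with DMSO, more than any other of the 193. OSM raised it to 8.12, 8.29 and 8.04 at 1 h, from 7.14, 7.06 and 7.11 in DMSO. At 24 h it read 8.04, 7.89 and 8.07 with OSM, 5.99, 5.87 and 5.72 with BRD8518, and 7.10, 7.23 and 7.03 in DMSO. The 3 groups were fully apart, with OSM high and BRD8518 low. After 6 h of BRD8518 it read 6.49 and 6.25 against 7.28, 7.33, 7.22 and 7.25. The changes were 1.05 ± 0.09 (adjusted p 2.8e-08) and 0.88 ± 0.09 (adjusted p 2.9e-07) for OSM at 1 h and 24 h. For BRD8518 they were -0.90 ± 0.09 (adjusted p 4.7e-07) at 6 h and -1.26 ± 0.09 (adjusted p 2.3e-10) at 24 h. Compared directly at 24 h, ZNF101 was 4.40-fold lower with BRD8518 than with OSM (-2.14 ± 0.09, adjusted p 6.0e-14). All of these calls held under every alternative that was run.

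ZNF878 had the highest rise at 1 h of OSM, reading 8.56, 8.70 and 8.55 against 7.24, 7.26 and 7.49. The groups were apart by about 1 log2 unit. The rise was 1.28 ± 0.12, 2.42-fold (adjusted p 2.1e-07). At 24 h the OSM arrays read 7.77, 7.85 and 7.72 and the DMSO arrays 7.23, 7.22 and 7.50. That rise of 0.46 ± 0.12 (adjusted p 0.015) was smaller by 0.82 ± 0.17 in a direct test of the times (adjusted p 0.0066). With BRD8518 at 24 h ZNF878 fell by 0.43 ± 0.12 (adjusted p 0.0094). The antisense gene ZNF433-AS1 overlaps ZNF878, so its assignment is uncertain.

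ZNF217, which recruits CtBP co-repressors and is amplified in breast cancer, read 9.37, 9.44 and 9.39 at 1 h of OSM and 8.83, 8.82 and 8.69 in DMSO. At 24 h it read 9.13, 9.08 and 9.14 against 8.80, 8.86 and 8.79. Every OSM array lay above every control at both times. The rises were 0.62 ± 0.07 (adjusted p 1.8e-06) and 0.30 ± 0.07 (adjusted p 0.0047). An antisense gene, ZNF217-AS1, overlaps it. The other rises at 1 h were ZNF460 (0.60), ZNF584 (0.48) and ZNF200 (0.46); at 24 h they were ZNF276 (0.33) and ZNF436 (0.28). The calls of ZNF584 at 1 h (5 of 16 alternatives), ZNF276 (5 of 16) and ZNF436 (7 of 16) were lost under several alternatives, each including the omission of OSM replicate 1 of that time. The rise of ZNF878 at 24 h was lost without OSM replicate 2 (0.43) or DMSO replicates 1 (0.42) or 2 (0.41).

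ZNF200 read 7.19, 7.18 and 7.13 at 1 h of OSM and 6.78, 6.58 and 6.77 in DMSO. At 24 h it read 6.61, 6.51 and 6.57 against 6.75, 6.73 and 6.83, so the OSM arrays had moved from above to below the controls. The direct test of the times gave -0.66 ± 0.11 (adjusted p 0.00075), while the 24 h change of -0.21 did not pass by itself. Between the times, 5 ZNF genes were lower and 1 higher, with 2.1% and 1.27% of all genes. Without DMSO 6 h replicate 2 there were 10 lower and 7 higher, with the groups alone 9 and 4, with genes under the median level left out 8 and 4, and under quantile normalization 4 and 5. Leaving out OSM 1 h replicate 1, OSM 24 h replicate 2, or DMSO 24 h replicate 2 or 3 gave 3 lower and 0 higher each.

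Falls under OSM were moderate. ZNF114, which BRD8518 raised at 24 h, read 8.11, 8.06 and 8.01 at 1 h of OSM, below the DMSO arrays at 8.62, 8.54 and 8.80. The change was -0.59 ± 0.12 (adjusted p 0.0048). ZNF189 had the deepest fall at 24 h, with 7.26, 7.08 and 7.12 against 8.05, 7.94 and 7.87. It fell by 0.80 ± 0.11 (adjusted p 1.7e-05), and by 0.45 at 1 h, a call lost without OSM 1 h replicate 1 (-0.30). ZNF362 read 8.58, 8.57 and 8.50 at 24 h against 9.15, 9.13 and 9.26 in DMSO, a change of -0.63 ± 0.07 (adjusted p 9.6e-07). At 1 h it had differed by -0.12 without passing, and the difference between the times was -0.52 ± 0.10 (adjusted p 0.0024). ZNF850 (-0.72), ZNF680 (-0.60), ZNF551 (-0.55), ZNF326 (-0.53), ZNF124 (-0.46), ZNF367 (-0.46), ZNF620 (-0.45) and ZNF43 (-0.44) were also lower at 24 h. Without OSM 24 h replicate 2 the calls of ZNF680 (-0.62), ZNF620 (-0.33) and ZNF43 (-0.37) were lost, and ZNF551 did not pass as the mean of its probe sets (-0.24). At 1 h the others were ZNF780A (-0.60), ZNF766 (-0.55), ZNF3 (-0.46), ZNF691 (-0.45), ZNF331 (-0.43), ZNF334 (-0.43), ZNF514 (-0.39) and ZNF500 (-0.38). Without OSM 1 h replicate 1, only ZNF114, ZNF3 and ZNF500 of the 10 passed.

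**Figure D4:**
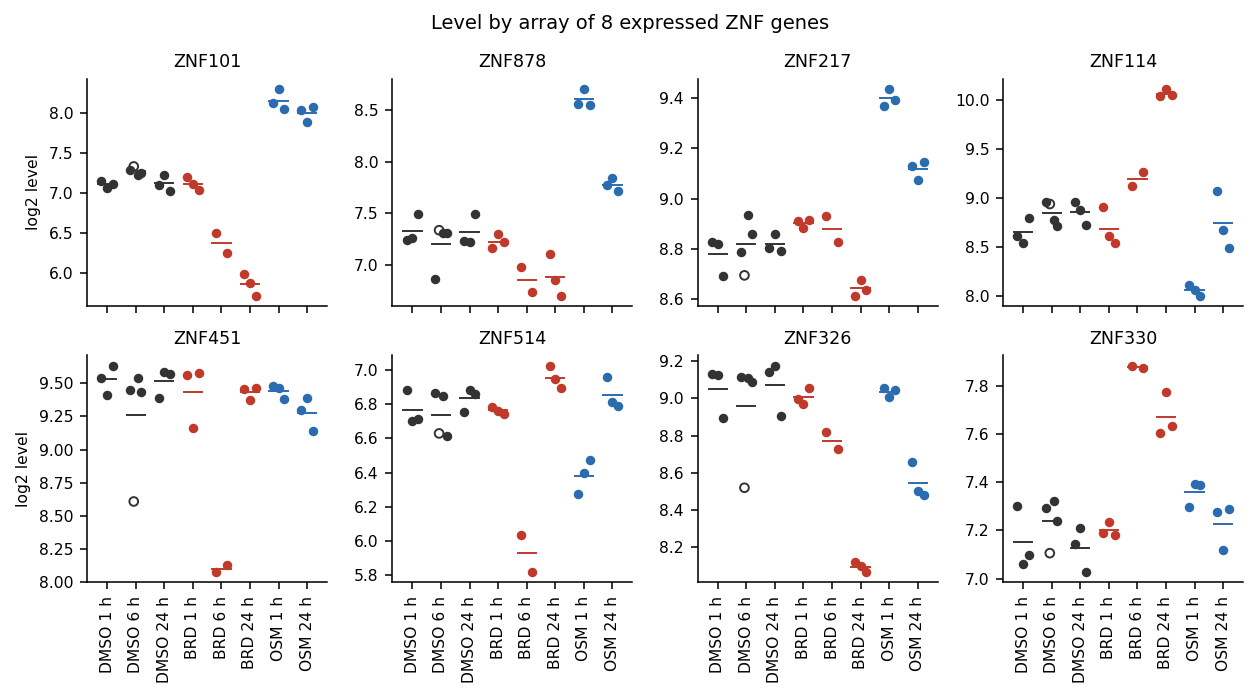
Log2 level on each array for 8 expressed ZNF genes in the 8 groups, with the group mean as a bar. Grey is DMSO, red BRD8518, blue OSM, and the open circle DMSO 6 h replicate 2; each panel has its own y axis, which does not start at 0. ZNF101 is high in all 6 OSM arrays and low in all 5 BRD8518 arrays of 6 h and 24 h.

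The treatments were also compared directly, with no DMSO mean in the difference, because their own comparisons share the controls of each time. DMSO arrays still entered the shared spread. At 1 h, 6 ZNF genes were higher and 7 lower with BRD8518 than with OSM, against 0.847% and 1.5% of all genes. ZNF878 (-1.38 ± 0.12), ZNF101 (-1.04 ± 0.09) and ZNF460 (-0.62 ± 0.07) were the furthest below, and ZNF114 (0.63 ± 0.12) and ZNF500 (0.49 ± 0.07) the furthest above. Without DMSO 6 h replicate 2 the counts were 19 and 11, without BRD8518 1 h replicate 1 they were 2 and 5, and with the position letter as a fixed term 3 and 5. At 24 h, 25 were higher and 26 lower, against 10.9% and 12.3% of all genes, and 39 and 44 without DMSO 6 h replicate 2. ZNF114 was 1.32 ± 0.12 higher (adjusted p 2.4e-08), followed by ZNF496 (0.77), ZNF581 (0.66), ZNF703 (0.64) and ZNF529 (0.63). Below OSM, after ZNF101, came ZNF878 (-0.89), ZNF584 (-0.89), ZNF480 (-0.69) and ZNF629 (-0.57).

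A list of 30 ZNF genes of known function was followed, of which 24 were expressed. ZNF10, ZNF91, ZNF93, ZNF350, ZNF410 and ZNF711 lay under the threshold, so the repressors of SVA (ZNF91) and LINE-1 (ZNF93) elements were not among the 193. In 14 of the 24 no comparison with DMSO passed. They include ZNF143, an activator of housekeeping and small nuclear RNA promoters, ZNF207, a spindle assembly factor, ZNF148, ZNF281, ZNF24, ZNF146 and the ribosome-linked ZNF598 and ZNF622. Some of the 14 did pass without DMSO 6 h replicate 2. Among them, ZNF598 was then higher and ZNF12 lower at both 6 h and 24 h of BRD8518. BRD8518 lowered 4 at 6 h: ZNF451 on the probe set used, ZNF331 (-0.60 ± 0.11), ZNF346 (-0.51 ± 0.12) and ZNF687 (-0.49 ± 0.12). These 4 were 16.7% of the list, near the 14.1% lower among all genes at the threshold; without DMSO 6 h replicate 2 there were 8 lower and 1 higher. All 4 calls were lost when the 6 arrays were fitted alone, that of ZNF346 also without BRD8518 6 h replicate 1 (-0.44) and that of ZNF687 without replicate 2 (-0.43).

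ZNF687 works with ZMYND8, and its partner ZNF592 differed by 0.09 ± 0.10 at 6 h without passing. At 24 h BRD8518 lowered 6, namely ZNF326, ZNF331 (-0.71 ± 0.10), the double-stranded RNA binder ZNF346 (-0.53 ± 0.11), ZNF76 (-0.50 ± 0.07), the hypoxia-linked ZNF395 (-0.49 ± 0.10) and the imprinting factor ZNF445 (-0.25 ± 0.09). The 6 were 25% of the list, beside 28.1% of genes at the threshold, and without DMSO 6 h replicate 2 there were 8 lower and 5 higher. The call of ZNF445 was lost under 8 of 16 alternatives, among them the omission of BRD8518 24 h replicate 3 (-0.18). ZNF76 is a paralogue of ZNF143, which differed by 0.11 ± 0.14 there and did not pass. One rose at 24 h, ZNF274, which marks the 3′ ends of ZNF genes with heterochromatin through SETDB1. It read 7.49, 7.44 and 7.38 against 6.84, 6.94 and 7.12 in DMSO, with no overlap, a change of 0.47 ± 0.09 (adjusted p 0.00038). Its 24 h change lay 0.58 ± 0.13 above that at 6 h (adjusted p 0.0058), a difference that did not pass without BRD8518 6 h replicate 1 (0.51). With OSM, ZNF217 rose at both times, ZNF331 fell at 1 h (-0.43 ± 0.10) and ZNF326 at 24 h, where 3 were lower without DMSO 6 h replicate 2.

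**Figure D5:**
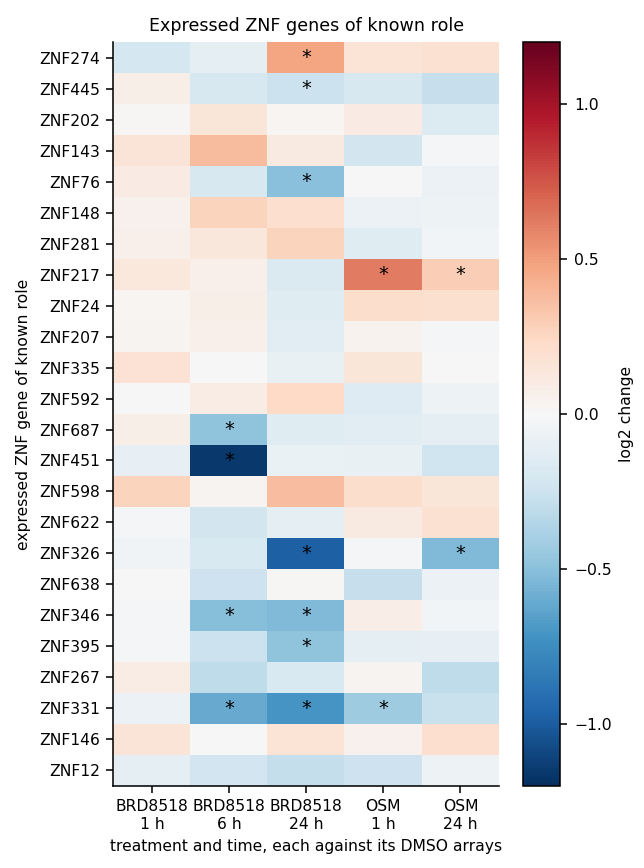
Log2 change against DMSO of the same time for the 24 expressed ZNF genes of known role (rows) in 5 comparisons (columns). Red is higher and blue lower than DMSO, and an asterisk marks an adjusted p under 0.05. Column 2 holds 4 asterisks and column 3 holds 7.

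Co-repressor and heterochromatin genes were followed in a list of 29 genes, 25 of them measured. The list is wider than the partners of KRAB proteins named above, and SETDB1 was not among the measured genes. At 6 h of BRD8518, 3 rose and 5 fell, and at 24 h 2 rose and 12 fell. Of all genes tested, 5.62% were higher and 8.86% lower at 6 h, and 12.1% and 15.6% at 24 h. Of genes at the threshold, which most of the 25 passed, these shares were 9.44% and 14.1%, and 18.4% and 28.1%. Leaving out DMSO 6 h replicate 2 gave 3 higher and 10 lower at 6 h, and 3 and 16 at 24 h, where of all genes 7.81% and 14.7%, and 15.5% and 20.2%, were called. In that fit 12.4% of genes at the threshold were higher and 24.6% lower at 6 h. TRIM28, the KRAB co-repressor itself, differed by -0.19 ± 0.10 at 6 h and -0.14 ± 0.09 at 24 h, neither past the test. MPHOSPH8, the reader of methylated H3K9 in the HUSH silencing complex, fell by 0.87 ± 0.09 at 6 h (adjusted p 6.9e-07) and by 0.29 ± 0.09 at 24 h. UHRF1, which guides DNA methylation after replication, fell by 0.48 ± 0.11 at 6 h and by 1.63 ± 0.11 at 24 h (adjusted p 6.3e-11). The H3K9 methyltransferases EHMT2 (-0.42 and -0.69) and SUV39H1 (-0.37 and -0.54) fell at both times. MORC3 (0.76 ± 0.17), TRIM24 (0.59 ± 0.14) and TRIM33 (0.63 ± 0.16) rose at 6 h, by 0.56, 0.41 and 0.41 without that array. OSM changed none of the 25 at 1 h and lowered 4 at 24 h, or 10 without that array, with UHRF1 at -0.91 ± 0.11. Of all genes, 5.65% and 9.78% were lower there, beside 11% of genes at the threshold in the fit with every array.

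Other C2H2 families at the same threshold were set beside the ZNF genes. Of all genes at the threshold, 14.1% were lower and 9.44% higher at 6 h of BRD8518, and 28.1% lower at 24 h. Without DMSO 6 h replicate 2 the 6 h shares were 24.6% and 12.4%. The counts below are from the fit with every array. At 6 h of BRD8518, all 6 ZKSCAN genes fell, with a median of -0.62, as did 4 of 7 ZFP genes (median -0.45). None of 7 ZSCAN genes passed, and 26 ZBTB genes, which pair fingers with a BTB domain in place of KRAB, split into 7 higher and 6 lower (median 0.10, and -0.06 without DMSO 6 h replicate 2). At 24 h, 2 of the 6 ZKSCAN genes were lower. Within the ZNF genes, 22 of 75 on chromosome 19 fell at 6 h (median -0.27) and 28 of 118 elsewhere (median -0.14). Of the 91 that overlap no other RefSeq gene, 27 fell and 3 rose, with 29.7% lower.

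Counting over the 5 comparisons with DMSO, 89 of the 193 genes passed in none, 54 in 1, 38 in 2, 11 in 3 and 1 in 4. Those in 3 were ZNF124, ZNF189, ZNF200, ZNF318, ZNF331, ZNF43, ZNF551, ZNF584, ZNF620, ZNF691 and ZNF878. The same count was not made over all genes, so it does not set the ZNF genes apart. Comparisons of the same time share DMSO arrays and all share the same spread, so repeated calls of a gene are not independent. CD68, a macrophage marker also expressed in HepG2, rose by 0.51 ± 0.08 at 6 h and 1.19 ± 0.08 at 24 h of BRD8518. No other of the 11 measured markers of other cell types passed there in the fit with every array. Without DMSO 6 h replicate 2, KRT5 was also higher at 6 h (0.35 ± 0.12) and LYZ lower at 24 h (-0.15 ± 0.05). With OSM, the monocyte marker CD14 rose by 0.78 ± 0.14 at 1 h and 0.74 ± 0.14 at 24 h, and at 24 h CD68 rose by 0.34 ± 0.08 and the endothelial PECAM1 fell by 0.43 ± 0.10. Of the 16 hepatocyte markers, BRD8518 lowered 3 at 6 h and 9 at 24 h. OSM raised 3 and lowered 1 at 1 h and raised 3 and lowered 6 at 24 h. Among genes at the threshold, 14.1% and 28.1% were lower at 6 h and 24 h of BRD8518. With OSM, 3.01% of them were higher and 1.02% lower at 1 h, and 6.48% and 11% at 24 h. Without DMSO 6 h replicate 2, BRD8518 lowered 10 hepatocyte markers and OSM 7 at 24 h, and their other counts stayed the same. In that fit 20.2% of all genes were lower at 24 h of BRD8518 and 9.78% at 24 h of OSM. The part of these markers in the ZNF changes was not tested.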

How the data were processed

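RNA of 24 samples was measured on Affymetrix whole-transcript arrays. The deposited values are log2 expression levels, 1 table row per probe set; RMA and the R package oligo are named per the submitters' processing notes. For the array annotation, a genome build was not given in the sources used here. Of 53617 probe sets, 16098 carried 1 gene symbol in the platform annotation; each of 14884 genes was represented by its brightest probe set, averaged across 24 arrays. No background correction or normalization was added. Levels give no read depth: the number of arrays (2 to 4 a group) limits the precision.

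One linear model over all 8 groups was fitted (limma 3.58.1, R 4.3.3), with Benjamini-Hochberg adjustment over all 14884 genes and calls at an adjusted p under 0.05. The fit was tested on simulated data. Members and lists were chosen with earlier results of these data known. Named were the largest called changes with separate arrays (10 a direction against DMSO, 5 in direct and between-time comparisons), a role list and up to 4 co-repressor genes a direction. Other genes, including those in full call lists and ZNF253 and ZNF266, were named after their values were seen. Alternatives were centring, quantile normalization, robust moderation, array weights, probe set means, the position letter, the compared groups alone, other thresholds and each array left out. All 6 h arrays, treated and control, carry position letter D, which no other group has. The letter therefore cannot adjust the 6 h change, and a 6 h call kept under it is no check of position.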

Additional observations from a re-analysis of the deposited data

Results flagged for a closer look

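In the DMSO 6 h group, 12 of 75 named ZNF genes had 1 array far from the other 3; chance gives such a gap in about 1 in 20 groups. Replicate 2 was the far array in 11 of them. It was low for ZNF148 (6.98), ZNF24 (7.75), ZNF264 (7.14), ZNF267 (6.37), ZNF277 (6.65), ZNF326 (8.52), ZNF451 (8.61) and ZNF614 (8.46), and high for ZNF598 (7.93), ZNF622 (7.47) and ZNF687 (8.46). ZNF878 was low on replicate 1 (6.86).

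The BRD8518 change differed between 6 h and 24 h (24 h minus 6 h, log2, adjusted p under 0.05 in limma) for ZNF326 (-0.79), ZNF695 (-0.78), ZNF219 (-0.51), ZNF367 (-0.48), ZNF70 (-0.43), ZNF451 (1.08), ZNF514 (0.93), ZNF114 (0.87), ZNF264 (0.71) and ZNF274 (0.58). Between 1 h and 6 h it differed for ZNF451 (-1.06), ZNF69 (-1.02), ZNF101 (-0.90), ZNF789 (-0.88), ZNF514 (-0.81) and ZNF330 (0.59). Values of ZNF451 are those of the probe set used, and its other probe set differed in the other direction at 6 h. The OSM change differed between 1 h and 24 h for ZNF878 (-0.82), ZNF200 (-0.66), ZNF362 (-0.52), ZNF704 (-0.41), ZNF460 (-0.40) and ZNF436 (0.44).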

How the results depend on the processing

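Of 118 named calls, 76 passed under every alternative run, 42 were lost under at least 1 and 0 reversed; 22 were lost with the compared groups alone, where fewer arrays estimate the spread. Of 105 named results that did not pass, 23 passed under an alternative. Counts of ZNF genes past the test moved by over 1.5 times as follows. Other thresholds and the set of all measured ZNF genes change the number of genes counted. For the other alternatives the cause was not tested. With array weights, BRD8518 gave 2 at 1 h and 100 at 6 h, OSM 41 at 1 h and 45 at 24 h, BRD8518 against OSM 44 and 95, and the time differences 47 (BRD8518, 24 h minus 6 h), 71 (6 h minus 1 h) and 18 (OSM). With the compared groups alone these were 0 at 1 h and 16 at 6 h of BRD8518, 11, 8 and 13 for the time differences. At 1 h of BRD8518, leaving out genes under the median level gave 2, centring 0, the position letter as a fixed term 0 and as a random block 2; the letter as a fixed term gave 8 for BRD8518 against OSM at 1 h and 14 for 6 h minus 1 h. Leaving out genes under the median level gave 12 for the OSM time difference. A threshold of 7, with fewer genes, gave 36 at 6 h of BRD8518, 9 at 1 h of OSM and 16 for 6 h minus 1 h. For the last, a threshold of 6, with more genes, gave 42. All measured ZNF genes, 491 in place of 193, gave 126 and 137 at 6 h and 24 h of BRD8518 and 29 at 1 h of OSM. They gave 26 and 86 for the direct comparisons, and 42 and 59 for the BRD8518 time differences. Leaving out 1 array gave 0 to 2 and 34 to 96 at 1 h and 6 h of BRD8518, 8 to 29 and 12 to 35 for OSM, 7 to 30 at 1 h and 39 to 83 at 24 h for the direct comparisons, and 12 to 45, 13 to 66 and 3 to 17 for the time differences. The highest of each came without DMSO 6 h replicate 2. At 24 h of BRD8518 the range was 60 to 106, within 1.5 times of 74. No paired analysis was possible because the labels give no replicate numbers. Protein features were not analysed here.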
